A study of Mus musculus with 9 samples.

Results

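Nonclassical Ly6c2-low monocytes were selected from single-cell RNA-seq libraries of CD11b+ cells of the mouse brain, and 517 of 30463 kept barcodes met the selection. Barcodes were kept between 500 and 20000 unique molecular identifiers (UMIs, tags that count each captured transcript 1 time), from 200 genes up and up to 10% of UMIs from mitochondrial genes. It was taken as a nonclassical monocyte when it held a UMI of Plac8 or Lyz2, a UMI in at least 2 of the 5 markers Ace, Treml4, Fabp4, S1pr5 and Spn, at most 1 UMI of Ly6c2, and under 1% of its UMIs in S100a8 and S100a9. Barcodes with a UMI of Cd3e, Nkg7, Cd79a or Cldn5 were not taken. The members were therefore chosen on measured values, and the levels of these genes are given as a description, without a test.

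The study asked which brain myeloid cells outlast inhibition of the CSF1 receptor (CSF1R) and which appear when the inhibitor is withdrawn. All mice were adult females, C57BL/6 in the labels and C57BL/6J in the study's methods. Ctrl mice were naive, D0 mice were fed the CSF1R inhibitor PLX5622 at 1200 mg/kg of diet for 14 days, and D2 mice received the same diet and then 2 days of control food. Each condition had 3 libraries, with 1 brain in a Ctrl library and 2 pooled brains in a D0 or D2 library, so that a pool gives the mean of its mice. Mice were flushed with saline through the heart to clear blood from the brain, the brains without cerebellum were depleted of myelin, and live CD11b+ cells were sorted into a 10x Genomics 3′ v3 assay. The library D2-3, which the study left out, stood apart here as well and is shown apart: 350 of the 517 members came from it. The software that counted the UMIs, Cell Ranger, was of version 3.1.0 in the file headers of D2-3, Ctrl-3 and Ctrl-2 and of version 3.0.2 in those of the other 6 libraries.

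Mouse blood holds classical monocytes, marked by Ly6C and the chemokine receptor CCR2, and nonclassical monocytes, which have little Ly6C, patrol the inner surface of vessels and clear debris from it. In the mouse most nonclassical monocytes arise from classical ones, a step that needs the nuclear receptor NR4A1 and the transcription factor C/EBPβ, and their survival depends on CSF1R, the target of the inhibitor. CD11b is carried by microglia, monocytes and neutrophils alike, so the sort takes all of them, and a monocyte that stayed in a brain vessel after the flush cannot be told apart here from one in the tissue.

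The 9 libraries held between 20257894 and 61230741 UMIs in all. The members of a library gave between 19032 UMIs, in the 3 cells of Ctrl-1, and 3225966 UMIs, in the 350 cells of D2-3. Over all members the median was 7846 UMIs and 2411 genes per cell. Any 2 libraries shared at most 8 barcode sequences. Levels are given as CPM, the UMIs of a gene per 1000000 UMIs summed over the members of a library, and are not divided by transcript length, because a 3′ assay counts 1 tag per molecule. Ctrl-1 was the thinnest library: a gene with no UMI there could still have had up to 157.6 CPM, against 0.93 CPM in D2-3 (3 counts of the total, counting error only).

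The 5 markers chose the members, so their detection describes the selection and does not bear on the label. Ace, which encodes angiotensin-converting enzyme (chromosome 11, 105967945 to 105989964, plus strand, GRCm38), had a UMI in 94.6% of members. This compares with 4.55% of the 330 classical monocytes and 0.512% of the 26775 barcodes of no named class, most of which are microglia. The median depths of these 3 kinds were 7846, 10540 and 6788 UMIs. Treml4, a receptor of the TREM family (chromosome 17, 48264295 to 48275360, plus strand), was found in 89.4% of members and Spn, the sialophorin CD43 (chromosome 7, 127132232 to 127137823, minus strand), in 92.8%. The fatty acid binding protein gene Fabp4 (chromosome 3, 10204088 to 10208576, minus strand) was found in 60.2% of members and in none of the 330 classical monocytes. S1pr5, the sphingosine phosphate receptor that lets these cells leave the bone marrow (chromosome 9, 21242912 to 21248443, minus strand), was found in 53.6% of members and in 0.0598% of the unnamed class. Members with 2, 3, 4 and 5 of the markers numbered 57, 106, 183 and 171. Ly6c2 was at 0 UMIs in 465 members and at 1 UMI in 52. The selection did not use the 16 further nonclassical genes, but they were listed with earlier results of these data known. They summed to a median of 13920 CPM over the 9 libraries, against 4416 CPM in classical monocytes and 1766 CPM in the unnamed class. Cebpb, the most abundant of them, had a mean of 4091, 2625 and 731.6 CPM in these 3 kinds. Classical monocytes were taken with under 2 of the 5 markers, so these sums describe the cells and do not test the label. The near copy of Ly6c2, Ly6c1, and the other Ly6 genes share sequence with it, so counts of single Ly6 genes are uncertain.

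Just outside the selection stood 471 barcodes with only 1 marker, 59 with 2 or more UMIs of Ly6c2, 19 with a lymphoid UMI, 10 with Cldn5, 7 at the S100a8 and S100a9 limit and 1 without Plac8 or Lyz2. The members just inside were the 57 with 2 markers and the 52 with 1 UMI of Ly6c2. Only 2 markers were found in 0 of 3, 9 of 72 and 2 of 17 members in Ctrl-1 to Ctrl-3, in 4 of 11, 6 of 17 and 3 of 23 in D0-1 to D0-3, in 3 of 9 and 4 of 15 in D2-1 and D2-2, and in 26 of 350 in D2-3. A single UMI of Ly6c2 was found in 0, 2 and 0 members in Ctrl, in 0, 3 and 6 in D0, in 2 and 3 in D2-1 and D2-2 and in 36 in D2-3. Summed by condition, borderline members were more frequent in D0 and in D2-1 and D2-2 than in Ctrl. Only 2 markers were found in 11.96% of Ctrl, 25.49% of D0 and 29.17% of D2-1 and D2-2 members. A single UMI of Ly6c2 was found in 2.174%, 17.65% and 20.83% of them. In D2-3 these shares were 7.429% and 10.29%. The borderline members were also spread unevenly over libraries: D0-1 had none with a UMI of Ly6c2, and D0-3 was close to Ctrl-2 in members with 2 markers.

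Markers of other cells were low in the members of most libraries, apart from those of microglia and of endothelial cells, the latter highest in D2-1. T and NK cell genes summed to a median of 4.06 CPM over the 9 libraries with Trbc2 and Ncr1 at 0 throughout, as were Cd3e and Nkg7 by the selection. Of the 7 neutrophil genes, Ly6g and Mmp9 were at 0, and the list summed to 152.8 CPM at the median with Csf3r, which monocytes also express, as its most abundant gene. Genes of border macrophages summed to a median of 0 CPM, with Lyve1 and Folr2 at 0 throughout and 88.6 CPM in D0-3, all from Ms4a7, as the highest value. Of the 7 dendritic cell genes Xcr1, Clec9a and Itgae were at 0, and the list was highest in D2-1, at 407.5 CPM, mostly from Cd209a. The 6 endothelial genes, with Cldn5 at 0 by the selection, summed to 815 CPM in D2-1, of which 433.0 came from Flt1. Their part in the values of D2-1 was not tested. Over the 9 libraries the median was 128.4 CPM, against 28.3 CPM in classical monocytes and 23.3 CPM in the unnamed class. The sum was above that of the unnamed class in all 9 libraries, and Pecam1 was the most abundant gene, at a mean of 80.75 CPM. Pecam1 is also in the list of adhesion and migration genes. It was higher in the members than in classical monocytes in all 7 libraries compared below, by a mean log2 difference of 2.27. The 10 microglia genes summed to 315 CPM in Ctrl-1, 5135 in Ctrl-2, 1913 in Ctrl-3, 3026 in D0-1, 6163 in D0-2, 202.4 in D0-3, 586 in D2-1, 718 in D2-2 and 422 in D2-3. In the unnamed class the same list summed to a median of 18210 CPM. Most of this signal came from few cells: 26 of 517 members had at least 0.2% of their UMIs in 8 microglia genes (P2ry12, Tmem119, Siglech, Gpr34, Sparc, Olfml3, Fcrls and P2ry13), 14 of them in Ctrl-2, where their median depth was 10350 UMIs against 5646 for the other members. Without these cells the list summed to between 156.0 and 585.8 CPM in every library. Doublets were not removed, and whether these barcodes hold more than 1 cell was not tested.

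The number of nonclassical monocytes varied more between libraries of a condition than between conditions. They made up 0.0704% of kept barcodes in Ctrl-1, 2.79% in Ctrl-2 and 0.460% in Ctrl-3. In D0-1, D0-2 and D0-3 the shares were 0.265%, 0.341% and 0.872%, and in D2-1 and D2-2 they were 0.229% and 0.620%. Ctrl spanned both the lowest and the highest of these 8 shares, so the D0 and D2 libraries all fell within its range. D2-3 stood far outside, at 19.4% of its 1808 kept barcodes (Wilson 95% interval 17.6 to 21.2%), where the interval covers counting error only. The mean share was 1.11% ± 1.47 (SD, n = 3) in Ctrl, 0.493% ± 0.331 (n = 3) in D0 and 0.425% ± 0.277 (n = 2) in D2 without D2-3.

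The study's own approach, an edgeR fit to cell numbers per class, was followed, with the kept barcodes of a library as its size. The log2 fold change was -1.17 (SE 1.25, adjusted p = 0.730) for D0 against Ctrl, -1.38 (SE 1.46, adjusted p = 0.730) for D2 against Ctrl and -0.22 (SE 1.42, adjusted p = 0.937) for D2 against D0. No difference was larger than the spread between libraries, and 1 library decided the sign: without Ctrl-2 the log2 fold changes against Ctrl were 0.87 for D0 and 0.66 for D2. Among the libraries of Cell Ranger 3.0.2 alone, which leave Ctrl-1 as the only control, they were 2.72 and 2.50. With D2-3 included, D2 stood 2.61 above Ctrl and 3.77 above D0 on the log2 scale, with unadjusted p = 0.186 and 0.0835 by edgeR. Since most kept barcodes are microglia, which the diet removes, more monocytes per brain and fewer microglia per brain cannot be told apart in this share. When only the named classes (neutrophil, endothelial, lymphoid and monocyte) formed the denominator, the Ctrl libraries averaged 13.4% ± 11.2, the D0 libraries 3.44% ± 1.73 and the D2 libraries 3.26% ± 0.706. By library it was 3.19, 25.4 and 11.6% in Ctrl, 2.77, 2.15 and 5.41% in D0, 2.76 and 3.76% in D2-1 and D2-2, and 42.4% in D2-3, so that Ctrl-1 lay within the range of D0. This share fell by 2.06 in D0 (log2 scale, edgeR adjusted p = 0.0278) and by 2.11 in D2 (adjusted p = 0.0426). With each library left out in turn, the fall in D0 passed only without Ctrl-1 (adjusted p = 0.00327) or D0-3 (0.0343) and that in D2 only without Ctrl-1 (0.00635). Without Ctrl-2 the log2 fold changes were -1.20 and -1.24, with an adjusted p of 0.514 for both. Neutrophils, which enter that denominator, made up 1.58% ± 1.68 of kept barcodes in Ctrl, 6.79% ± 3.70 in D0 and 4.44% ± 3.19 in D2. Endothelial barcodes, also in it, had log2 fold changes of 1.09 in D0 and 1.32 in D2 as shares of kept barcodes (edgeR adjusted p = 0.255 for both).

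The balance of nonclassical to classical monocytes does not depend on the number of microglia. Classical monocytes, taken as barcodes with Plac8 or Lyz2, at least 2 UMIs of Ly6c2, a UMI of Ccr2 and under 2 of the 5 markers, numbered 330. Nonclassical cells were 3 of 9 monocytes in Ctrl-1, 72 of 95 in Ctrl-2 and 17 of 27 in Ctrl-3, which is 33.3%, 75.8% and 63.0%. They were 37.9%, 17.3% and 34.8% of monocytes in the D0 libraries and 30.0% and 23.4% in D2-1 and D2-2. Ctrl-2 and Ctrl-3 thus lay above every D0 and D2 library except D2-3, where 350 of 429 monocytes, or 81.6% (Wilson 95% interval 77.6 to 85.0%), were nonclassical. The interval of Ctrl-1, with 9 monocytes, was 12.1 to 64.6% and reached Ctrl-3 and the intervals of the D0 libraries, D2-1 and D2-2, but not those of Ctrl-2 or D2-3.

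Against a Ctrl mean of 57.4% ± 21.8 (n = 3), D0 was 27.3 percentage points lower at 30.0% ± 11.1 (n = 3; two-sided exact permutation p = 0.3, smallest possible 0.1). D2 was 30.6 points lower at 26.7% ± 4.64 (n = 2; exact permutation p = 0.2, the smallest this design allows). D2 and D0 differed by 3.32 points (exact permutation p = 0.8). Classical monocytes were 0.43% ± 0.40 of kept barcodes in Ctrl, 1.23% ± 0.69 in D0 and 1.28% ± 1.06 in D2. Their edgeR log2 fold changes against Ctrl were 1.52 in D0 and 1.57 in D2 (adjusted p = 0.613 for both). Without Ctrl-2 they were 2.57 and 2.61, beside 0.87 and 0.66 for nonclassical monocytes. The 3 libraries with the highest nonclassical share were those of Cell Ranger 3.1.0. Among the libraries of version 3.0.2 the differences from the single control were -3.29 points for D0 and -6.61 for D2. Without D2-3, condition and software version are thus separated in the shares only through Ctrl-1, a library with few monocytes.

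**Figure D1:**
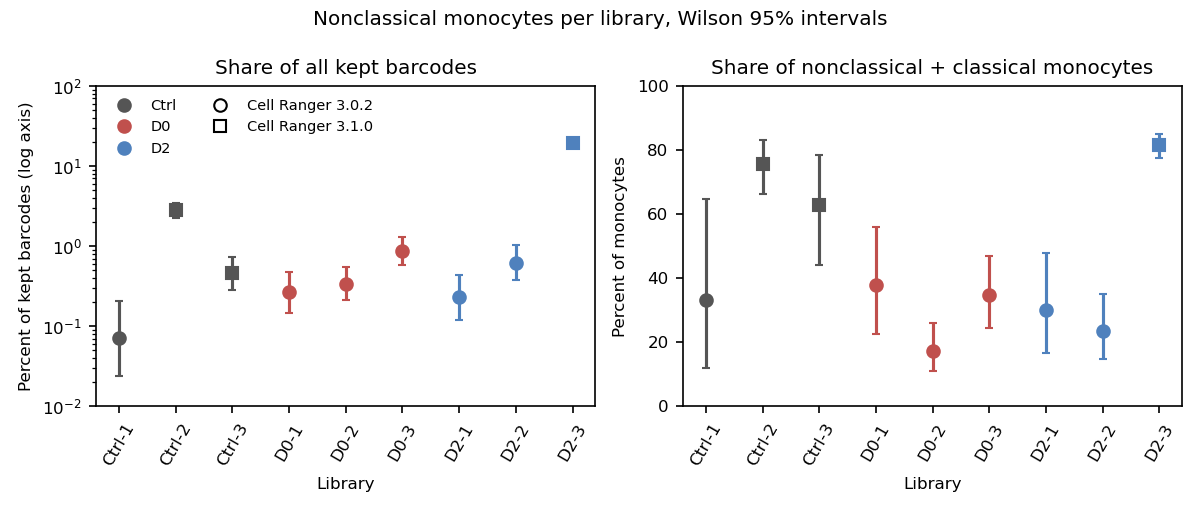
Nonclassical monocytes in each library as a percentage of kept barcodes (left, log axis) and of nonclassical plus classical monocytes (right), with Wilson 95% intervals that cover counting error only; colours give the condition, and squares mark Cell Ranger 3.1.0. D2-3 stands at 19.4% and 81.6%, and Ctrl spans 0.0704 to 2.79% and 33.3 to 75.8%.

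Set against classical monocytes, the members carried a broad nonclassical programme. For the 7 libraries with at least 10 cells of each kind (Ctrl-2, Ctrl-3, D0-1, D0-2, D0-3, D2-2 and D2-3) the difference in log2(CPM + 10) was taken within each library, with no test, since the selection itself separates these cells. Of 7712 genes with at least 10 CPM, 547 (7.09%) were higher in the members in every library and 517 (6.70%) were lower. Among the 16 further nonclassical genes, 14 were higher in every library and none was lower, with a median difference of 3.01. The muscle-type enolase gene Eno3 led, with a mean difference of 5.38 ± 0.242 (SD, n = 7), 549.7 CPM in the members and 3.49 CPM in classical monocytes. The ribonuclease gene Ear2 (4.89 ± 1.47), the CD300 family receptor gene Cd300e (4.70 ± 0.917), the scavenger receptor gene Cd36 (4.32 ± 0.977) and the peptidoglycan recognition gene Pglyrp1 (3.87 ± 0.870) followed. Cd300e had no UMI in classical monocytes of any library. Ear2 belongs to a family of near-identical genes, so its counts are uncertain.

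Other genes far apart were Slc12a2 (3.51 ± 1.16), a cotransporter of sodium, potassium and chloride, and Hes1 (3.49 ± 1.19), a transcriptional repressor downstream of Notch. On the other side stood genes of classical monocytes. Fn1, fibronectin, was lower in the members by a log2 difference of -4.69 ± 2.03, F13a1, a clotting factor subunit, by -4.41 ± 0.956, Thbs1, thrombospondin 1, by -3.98 ± 1.85 and Chil3, a chitinase-like lectin, by -3.63 ± 2.15. Of the classical list, all 8 genes that the selection did not use were lower in every library, with a median of -3.39. Ly6c2 (-6.11 ± 0.987) and Ccr2 (-3.39 ± 1.51), also in that list, defined the classical class. Capg (-3.29 ± 1.58), AI839979 (-3.28 ± 0.963) and Ccr1 (-3.18 ± 0.739) were also among the 10 largest differences in this direction.

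**Figure D2:**
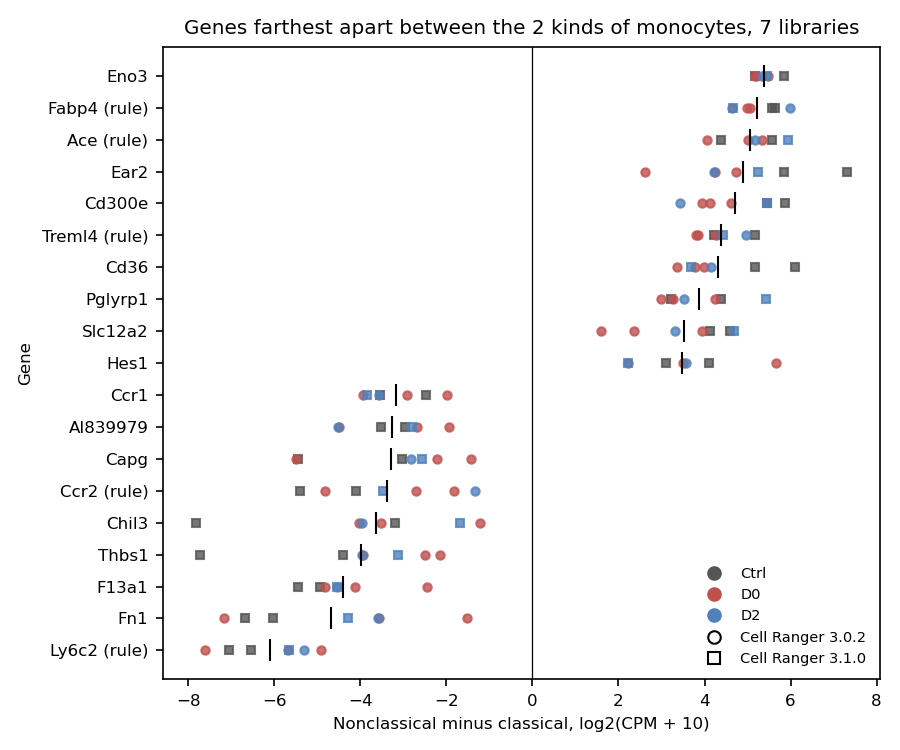
Difference in log2(CPM + 10) between nonclassical and classical monocytes of the same library, for genes among the 10 farthest apart in each direction; each point is 1 of 7 libraries, the bar is the mean, "rule" marks genes used in the selection, colours give the condition and squares mark Cell Ranger 3.1.0. Eno3 lies between 5.16 and 5.85 in all 7 libraries, while Fn1 runs from -7.16 to -1.52.

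Regulators, receptors and effectors divided between the 2 kinds of monocytes. Among 14 regulators of monocyte identity, 5 were higher in the members in every library and 2 were lower. Pou2f2, a transcription factor of this lineage, stood 2.25 ± 0.306 higher, while Nr4a1 was only 0.409 ± 0.320 higher, at 1281 CPM in the members and 979 CPM in classical monocytes. Its relatives Nr4a2 and Nr4a3 were on the other side, at -1.47 ± 0.713 and -1.07 ± 0.806. Cebpb was the most abundant of the list, at 4314 CPM against 2884 CPM.

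Of 11 growth factor and survival genes, 4 were higher in every library and none was lower. They included Bcl2, which blocks cell death, at 167.3 against 16.4 CPM, and Csf1r, the drug target, at 1054 against 462.5 CPM. Bcl2a1b and Bcl2a1d are near-identical copies, with uncertain counts. Of 14 adhesion and migration genes, without Ccr2, 6 were higher in every library and 1 was lower. Itgal (2.88 ± 0.428) and Itgb2 (1.25 ± 0.408), the chains of the integrin LFA-1 with which these cells crawl along vessels, and the fractalkine receptor gene Cx3cr1 (642.0 against 307.4 CPM) were among the higher. Of 10 Fc and complement receptor genes, 4 were higher and 2 lower. Fcgr4, an activating Fc receptor, stood 3.32 ± 0.751 above classical monocytes and Fcgr1 stood at -1.69 ± 1.31.

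MHC class II and interferon-induced genes were at lower levels in the members of the 7 libraries. Of 7 MHC class II genes, which present antigen to T cells, 6 were lower in every library, with a median of -1.84, and of 12 interferon-induced genes at 10 CPM or more 8 were lower, with a median of -1.76. H2-Aa stood at 707 CPM against 2040 CPM and Isg15 at 60.9 against 373. In the remaining libraries, which had under 10 cells of a kind, the MHC class II sum was on the other side, at 24020 CPM in the members against 8657 CPM in classical monocytes of D2-1 and at 788.1 against 564.8 CPM in Ctrl-1, while the interferon-induced sum was lower in the members of both. Of 12 inflammatory genes 2 were lower in every library and 0 higher, with a median of -0.70, and of 12 immediate early and stress genes, which cells switch on quickly when stimulated or handled, 3 were lower and 0 higher, with a median of -0.22. The 8 cell cycle genes summed to a median of 12.8 CPM over the 9 libraries in the members, against 565 CPM in classical monocytes and 904 CPM in the unnamed class. These medians mix conditions: the unnamed class had 38.9 to 56.5 CPM in Ctrl and 712 to 2288 CPM in treated libraries. Classical monocytes had 565, 21.2 and 9.70 CPM in Ctrl-1 to Ctrl-3, where the members had 0, 10.2 and 12.8 CPM. In D0-3 it was 33.0 against 12.7 CPM. The members of D0-1 had 369 CPM, with 95% of these UMIs from 1 cell. In the members, 21 of 517 (4.06%) had a UMI in at least 2 of the cell cycle genes.

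Against all other kept barcodes of the same libraries, 920 of 8500 genes (10.8%) were higher in every library and 1446 (17.0%) lower. Apart from genes of the selection, the leading genes were Ear2 (4.99 ± 1.15), Itgal (4.72 ± 0.849), Adgre4 (4.66 ± 0.654), an adhesion receptor related to F4/80, Cd300e (4.49 ± 0.838) and Eno3 (4.37 ± 0.301). Among the lowest were the neutrophil genes Retnlg (-4.98) and Lcn2 (-4.59) and the microglia genes Fcrls (-4.09), Sparc (-3.82), Gpr34 (-3.82) and Olfml3 (-3.71). All 10 microglia genes were lower in every library. The 5 selection markers summed to between 1.52 and 8.49 CPM in the unnamed class of the 8 libraries and to 51.9 CPM in that of D2-3, where the members themselves had 2131 CPM. Whether those UMIs are free RNA or from cells that missed the selection was not tested.

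Gene levels of the members were then compared between conditions. The sums over libraries with at least 10 members entered 1 edgeR fit, which left 2 Ctrl libraries (72 and 17 members), 3 D0 libraries (11, 17 and 23) and D2-2 (15). No gene of 2394 tested passed an adjusted p of 0.05 between D0 and Ctrl, a background of 0%. At an unadjusted p under 0.05 there were 222 genes by edgeR and 83 by DESeq2, which also called 0. Without the upper UMI limit 359 of 4981 genes passed by edgeR, 101 higher and 258 lower in D0. Lifting this limit took the members from 72 to 79 in Ctrl-2 and from 17 to 22 in Ctrl-3. In D0-2 they went from 17 to 19 and in D0-3 from 23 to 26, and D0-1 stayed at 11. Among members with few microglia UMIs the numbers stayed at 58 and 16 in these Ctrl libraries and at 9, 14 and 23 in D0-1 to D0-3. What the added barcodes contribute to the 359 genes was not tested. Both Ctrl libraries carried Cell Ranger 3.1.0 and all D0 libraries 3.0.2, so a difference between D0 and Ctrl cannot be told apart from one between versions. Where nothing else is said, the values that follow therefore did not pass the test. Separate mice made the libraries, but each p measures only the spread between 5 of them.

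The further nonclassical genes lay mostly on the lower side in D0. Of 16, all of them tested, 12 had a fold change below 0 and 4 above, with a median of -0.52 beside 0.01 for all 2394 genes. In 9 of the 16 every D0 library was below both Ctrl libraries, and in 1 every D0 library was above. Over all genes tested, 16% lay without overlap on the lower side and 11.9% on the higher.

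Cd36 (chromosome 5, 17781690 to 17888801, minus strand) had 353.4 and 680.5 CPM in Ctrl-2 and Ctrl-3 and 147.6, 143.7 and 126.5 CPM in D0-1 to D0-3. Its log2 fold change was -1.78 (SE 0.35, edgeR adjusted p = 0.325). D2-1, D2-2 and D2-3 had 127.3, 206.9 and 248.0 CPM, all below both tested Ctrl libraries, while Ctrl-1, with 4 UMIs of the gene, had 210.2 CPM.

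Ear2 (chromosome 14, 44102654 to 44103534, plus strand) had 975 and 1579 CPM in Ctrl-2 and Ctrl-3, against 461.2, 494.1 and 430.2 CPM in D0, a log2 fold change of -1.40 (SE 0.28, edgeR adjusted p = 0.347). Ctrl-1, at 578 CPM, was close to D0, and D2-3, at 878.5 CPM, was above every other treated library. Cd300e (chromosome 11, 115051917 to 115062177, minus strand) had 525.4, 428.6 and 577.8 CPM in the 3 Ctrl libraries and 166.0, 143.7 and 234.1 CPM in D0 (log2 fold change -1.35, SE 0.31, edgeR adjusted p = 0.364). In D2 it was 280.1, 97.4 and, in D2-3, 426.8 CPM, so that D2-3 came close to the lowest Ctrl library.

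Adgre4 (chromosome 17, 55749984 to 55853662, plus strand) had 630.5, 582.9 and 616.3 CPM in Ctrl-1 to Ctrl-3 and 276.7, 206.6 and 316.3 CPM in D0. The log2 fold change was -1.11 (SE 0.28, edgeR adjusted p = 0.364). All 3 Ctrl libraries lay above all D0 libraries and above the 3 D2 libraries at 229.2, 413.8 and 464.0 CPM. The value of Ctrl-1, the only control of Cell Ranger 3.0.2, came from 12 UMIs in 3 members. The most abundant genes of the list moved little. Cebpb had 3422 and 4712 CPM in Ctrl-2 and Ctrl-3 and 3967, 4115 and 6003 CPM in D0, and Gngt2, a G protein subunit, 2031 and 1656 against 1753, 1725 and 1955 CPM. Nr4a1 had 1139 and 1849 CPM against 701.1, 1285 and 1847 CPM, a log2 fold change of -0.13 (SE 0.38), and its groups overlapped.

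**Figure D3:**
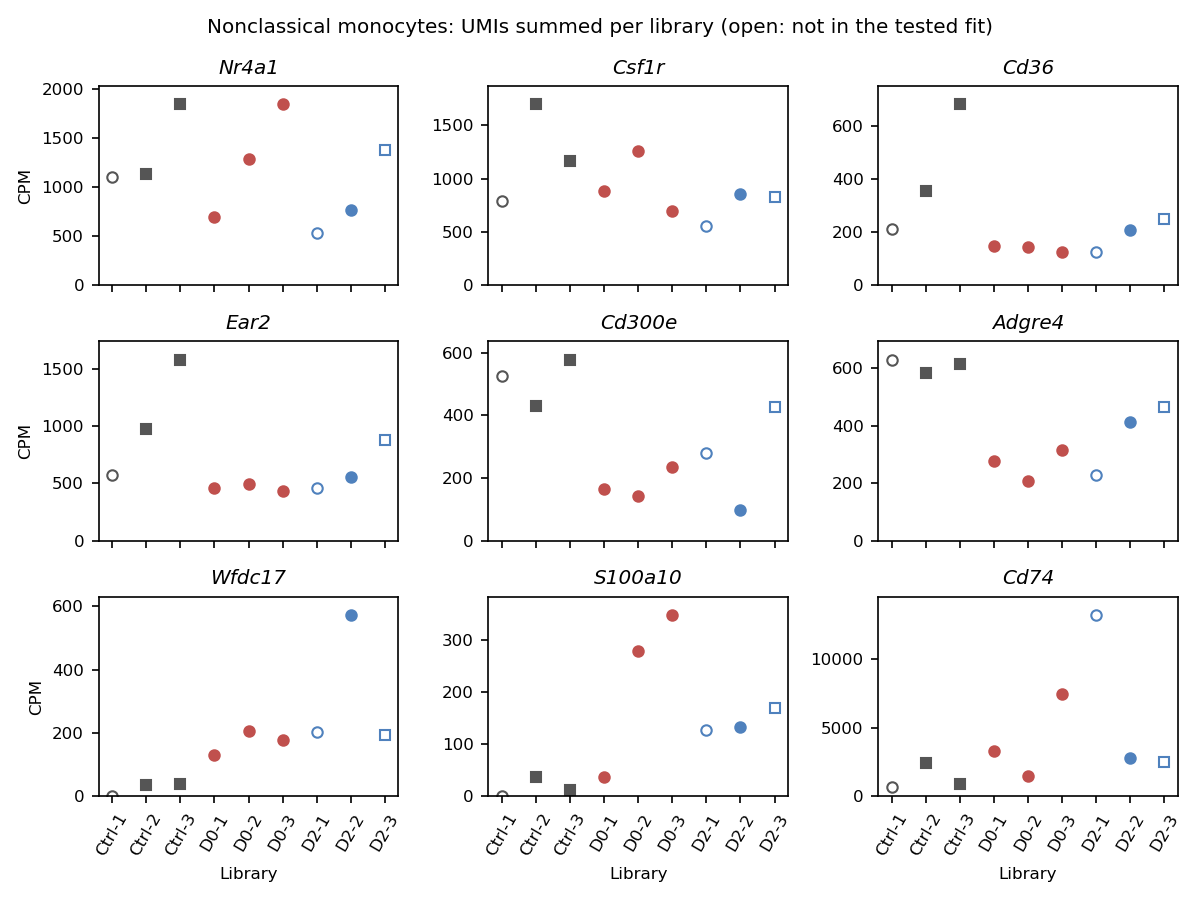
CPM of 9 genes in the summed members of each library; colours give the condition (grey Ctrl, red D0, blue D2), squares mark Cell Ranger 3.1.0 and open symbols mark libraries outside the fit (Ctrl-1, D2-1 and D2-3). Adgre4 was at 582.9 to 630.5 CPM in the 3 Ctrl libraries, from 12 UMIs in Ctrl-1, and lower in the treated ones, while Nr4a1 overlaps between conditions.

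Genes of the classical list leaned the other way. Of 10, 5 were tested, and all 5 had a fold change above 0, with a median of 1.17; 1 of them did not overlap, beside 11.9% of all genes on that side. Hp, haptoglobin, was that gene, at 298.6 and 141.2 CPM in Ctrl-2 and Ctrl-3 and 332.1, 377.3 and 335.3 CPM in D0 (log2 fold change 0.60, SE 0.33, edgeR adjusted p = 0.585). Chil3 was uneven, from 0 to 152.3 CPM in the tested Ctrl libraries and 110.7, 170.7 and 771.8 CPM in D0. Plac8, which the selection used, had 991.2 and 513.6 CPM in Ctrl-2 and Ctrl-3 and 1513, 1940 and 3220 CPM in D0.

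The genes with the smallest p, which were chosen after their values were seen, were Wfdc17 and Adcy7, each with an edgeR adjusted p of 0.151. Wfdc17, a small protease inhibitor of myeloid cells (chromosome 11, 83703991 to 83706268, plus strand), had 34.5 and 38.5 CPM in Ctrl-2 and Ctrl-3, from 17 and 3 UMIs. In D0 it had 129.1, 206.6 and 177.1 CPM, from 7, 23 and 28 UMIs, a log2 fold change of 2.35 (SE 0.38). The D2 libraries had 203.7, 572.1 and, in D2-3, 191.9 CPM, and Ctrl-1 had no UMI, below a limit of 157.6 CPM. Classical monocytes had 804.1 to 1336 CPM of Wfdc17 in all 9 libraries. Adcy7, an adenylate cyclase, had 249.8 and 295.3 CPM in Ctrl-2 and Ctrl-3 and 92.3, 62.9 and 63.3 CPM in D0 (log2 fold change -1.88, SE 0.32), with 134.8 CPM in D2-3 and, from 2 UMIs, 105.1 CPM in Ctrl-1, near D0. S100a10, a partner of annexin A2, had 36.6 and 12.8 CPM in Ctrl, the latter 1 UMI, and 36.9, 278.5 and 347.9 CPM in D0.

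The target of the drug and the other survival genes showed no common direction. Of 11 growth factor and survival genes, 9 were tested, 4 with a fold change above 0 and 5 below, and the median was -0.18. In 1 of them the D0 libraries all lay above Ctrl and in 3 all below, beside 11.9% and 16% of all genes. Csf1r had 1696 and 1168 CPM in Ctrl-2 and Ctrl-3, 885.6, 1258 and 695.9 CPM in D0 and 560.3, 852.0 and 823.0 CPM in D2. Its log2 fold change in D0 was -0.56 (SE 0.31, edgeR adjusted p = 0.585), the groups overlapped, and Ctrl-1 stood at 788.1 CPM. Mcl1, which protects from cell death, had 676.4 and 629.1 CPM in the tested Ctrl libraries, 945.8 CPM in Ctrl-1 and 756.4, 1024 and 1006 CPM in D0.

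Of 15 adhesion and migration genes 10 were tested, 9 of them with a fold change below 0 (median -0.49), and 5 of the 10 did not overlap, all on the lower side, where 16% of all genes lay. Itgb2 had 998.3, 1048 and 988.7 CPM in the 3 Ctrl libraries, 608.8, 494.1 and 797.1 CPM in D0 and 433.0 and 523.4 CPM in D2-1 and D2-2 (log2 fold change of D0 -0.63, SE 0.28, edgeR adjusted p = 0.513). D2-3, at 960.6 CPM, was nearer to Ctrl than to the other treated libraries. Itgal had 821.7 to 958.7 CPM in Ctrl, 387.4 to 765.4 CPM in D0, 534.8 and 657.3 CPM in D2-1 and D2-2, and 1056 CPM in D2-3, above every Ctrl library. Of 10 Fc and complement receptor genes 8 were tested, 3 above and 5 below 0, with a median of -0.57 and 4 without overlap on the lower side (16% of all genes). Cd300e and Cd300ld are in both this list and the nonclassical one.

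Inducible genes were mixed. Of 13 interferon-induced genes 8 were tested, 7 of them above 0 (median 0.96), and of 7 MHC class II genes all 6 tested were above 0 (median 1.61). In these lists 2 and 1 genes did not overlap, on the higher side (11.9% of all genes). Ifi27l2a, a small interferon-induced protein, had 558.5 and 179.8 CPM in Ctrl-2 and Ctrl-3 and 848.7, 1240 and 885.6 CPM in D0, but Ctrl-1 had 1051 CPM. Cd74, the invariant chain of MHC class II, had 2429 and 911.6 CPM in Ctrl-2 and Ctrl-3 against 3339, 1482 and 7503 CPM in D0, with overlap (log2 fold change 1.32, SE 0.59, edgeR adjusted p = 0.529). Of 12 inflammatory genes 9 were tested, 6 above and 3 below 0. Il1b had 1058 and 1515 CPM in Ctrl and 1531, 2093 and 2227 CPM in D0. Tnf, by contrast, had 211.2 and 141.2 against 92.3, 62.9 and 12.7 CPM, the D0 values from 5, 7 and 2 UMIs. Of 12 immediate early and stress genes 6 lay on each side, with a median of 0.02, and Fos had 475.3 and 885.9 CPM against 1365, 1455 and 1518 CPM, with 1314 CPM in Ctrl-1. Microglia genes leaned lower (8 of 9, median -0.23).

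Since microglia genes and borderline members were unevenly spread over libraries, the test was repeated on narrower selections. With the 26 members rich in microglia genes left out, D0-1 no longer had 10 members, and 41 of 1721 genes (2.38%) passed between 2 D0 and 2 Ctrl libraries, 20 higher and 21 lower. They included 4 of the 16 further nonclassical genes, namely Cd36 (-1.81, edgeR adjusted p = 0.0109), Cd300e (-1.34, adjusted p = 0.0219), Ear2 (-1.34, adjusted p = 0.0234) and Adgre4 (-1.15, adjusted p = 0.0398). In 10 of the 16 both D0 libraries lay below both Ctrl libraries and in 2 above, beside 26.5% and 22.4% of all genes.

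The largest falls were those of Cd81 (-3.36, edgeR adjusted p = 0.0196), a tetraspanin, C1qb (-3.02, adjusted p = 0.0267), a complement chain that microglia express strongly, the mitochondrial transcript mt-Nd3 (-2.54, adjusted p = 0.0106), the tetraspanin gene Cd9 (-2.45, adjusted p = 0.00129) and Adcy7 (-2.01, adjusted p = 0.0105). The largest rises were those of Fn1 (4.33, adjusted p = 0.0234), Thbs1 (3.75, adjusted p = 0.00453), S100a10 (3.29, adjusted p = 0.00129), Cd14 (2.58, adjusted p = 0.00192), a co-receptor for lipopolysaccharide, and Vim (2.39, adjusted p = 0.0177). Cd81 and C1qb rested on this selection: with all members their log2 fold changes were 0.09 and 0.30. In this selection Fn1, Thbs1 and S100a10 had no UMI in Ctrl-3, and the libraries outside the fit did not follow the rises. D0-1 had no UMI of these 3 genes, 119.2 CPM of Cd14 against 129.7 in Ctrl-2, and 178.8 CPM of Vim against 480.4 in Ctrl-2, while Ctrl-1 had 157.6 CPM of Thbs1, from 3 UMIs, and 1156 CPM of Vim. D0-1 also had 268.2 CPM of Cd81, above the 159.1 and 251.5 CPM of Ctrl-2 and Ctrl-3. Fn1, Thbs1, S100a10 and Cd14 were lower in nonclassical than in classical monocytes in all 7 libraries compared above, and Cd9 was higher. Within D2-3, members at 1 UMI of Ly6c2 had more Fn1 (126.9 against 15.5 CPM), Thbs1 (421.3 against 97.1) and S100a10 (411.2 against 135.9) than those at 0. Among all members, those at 1 UMI numbered 0 in D0-1, 3 in D0-2 and 6 in D0-3. Their part in the rises was not tested. The mitochondrial transcripts mt-Nd2, mt-Cytb, mt-Atp6 and mt-Co3 were also among the 21 genes that fell. Mitochondrial genes were not tested as a list, and 2.38% of all genes passed. What mitochondrial content and remaining microglia RNA contribute was not tested. Plac8 and Treml4 also passed, but the selection used both.

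When the limit was lowered to 5 members, so that D0-1 returned, 5 of 1422 genes (0.352%) passed by edgeR, with Cd9 (-2.60), Cd36 (-1.93), Adcy7 (-1.95) and Pilra (-1.49), an inhibitory receptor gene, on the lower side and Plac8 on the higher. All 5 were among the 41. Without D0-3 no gene passed, and without D0-1 23 did. Restricting the members to Ly6c2 at 0 UMIs left 0 of 2084 genes called, and there the log2 fold changes were -1.75 for Cd36, -1.19 for Ear2, -1.12 for Cd300e and -0.95 for Adgre4. With at least 3 markers they were -1.39, -0.95, -1.13 and -1.01, with 0 of 1632 genes called. With all 9 libraries and the Cell Ranger version as a term, 0 of 1490 genes passed, and these values were -1.05, -0.47, -0.79 and -0.96, while Cd9 and Pilra turned to 0.25 and 0.28.

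Without D2-3 the limit of 10 members left 1 D2 library, so D2 was compared with Ctrl over libraries of at least 5 members (D2-1 with 9, D2-2 with 15). By edgeR 1 of 1627 genes passed (0.0615%): Wfdc17, higher by 3.57 on the log2 scale (SE 0.48, adjusted p = 0.0264). This call held in 3 of 7 fits that left out 1 library, and was lost without Ctrl-2, Ctrl-3, D0-1 or D2-2 (log2 fold change between 2.51 and 3.58). The fits without D2-1, where it held, D2-2, Ctrl-2 or Ctrl-3 left 1 library in that group. Only the other groups gave the spread in these fits. With D2-3 added to the same libraries 0 of 1930 genes passed, 221 had an unadjusted p under 0.05, and Wfdc17 stood at 3.09 (edgeR adjusted p = 0.0868). Within D2-3 Wfdc17 had 154.3 CPM in members at 0 UMIs of Ly6c2 and 462 CPM in those at 1 UMI. Members at 1 UMI made up 20.83% of D2-1 and D2-2 members and 2.174% of Ctrl members. Their part in the rise of Wfdc17 was not tested. D2 and D0 were compared with the same Ctrl libraries, so their values are not independent. Of the 16 further nonclassical genes 15 were tested in D2, 13 with a fold change below 0 and 2 above, with a median of -0.78 beside -0.00 over all genes. D2-1 and D2-2 both lay below both Ctrl libraries in 10 of them, beside 27% of all genes on that side and 23% on the other. All 6 MHC class II genes tested were above 0, with a median of 2.60, and 3 of them did not overlap, beside 23% of all genes. A single cell gave 53.3% of the MHC class II UMIs in D2-1 and 73.9% in D2-2, and dendritic cell genes summed to 407.5 CPM in D2-1 against 2.03 and 0 CPM in Ctrl-2 and Ctrl-3, and their part in this was not tested.

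Inflammatory genes stood lower in D2-1 and D2-2 than in Ctrl-2 and Ctrl-3, but not than in Ctrl-1, which had too few members to be tested. The list summed to 1314 CPM in Ctrl-1, 4824 and 4930 CPM in Ctrl-2 and Ctrl-3, and 2012, 2641 and 5084 CPM in D2-1, D2-2 and D2-3. All 8 tested had a fold change below 0, with a median of -1.38, and in 7 of them both D2 libraries were below both Ctrl libraries, beside 27% of all genes. Tnf had 25.5 and 12.2 CPM in D2-1 and D2-2, from 1 UMI each, and Il1b 942.3 and 632.9 CPM, each below Ctrl-2 and Ctrl-3. For these 2 genes Ctrl-1 had 105.1 CPM, from 2 UMIs, and 315.3 CPM, and D2-3 had 54.9 and 1609 CPM. Microglia genes were lower than in Ctrl-2 and Ctrl-3 as well, with all 8 tested below 0 and a median of -3.06, while their sum in Ctrl-1, 315 CPM, was below the 586 and 718 CPM of D2-1 and D2-2. With few microglia UMIs, 6 inflammatory genes were tested, again all below 0, with a median of -0.69 and 4 without overlap, beside 30% of all genes on that side. No inflammatory gene passed the test in either selection.

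In that narrower selection 12 of 1422 genes (0.844%) passed between D2 and Ctrl by edgeR, 4 higher and 8 lower. This count depended on single libraries, with 3 without Ctrl-2 or D2-2, 4 without D0-3, 8 without D0-2 or D2-1 and 40 without D0-1, and it was 0 with D2-3 and the Cell Ranger version as a term. Over all genes, 22.2% lay without overlap on the higher side and 30% on the lower, and of the 15 further nonclassical genes 13 did so on the lower side. Cd9 (-2.75), Adcy7 (-2.58) and Pilra (from 418.5 and 377.3 CPM to 152.8 and 65.0 CPM) fell, as they did in D0 against the same Ctrl libraries, and so did Dusp5 (-3.16), a phosphatase that switches off ERK. Ctrl-1, outside the fit, stood nearer to the treated libraries in the first 3, with 472.9 CPM of Cd9 against 1279 and 852.4 in Ctrl-2 and Ctrl-3, 105.1 CPM of Adcy7 and 157.6 CPM of Pilra. Of the further nonclassical genes Cd300ld fell (-1.89). Wfdc17 (3.49), Slfn5 (3.48), of the schlafen family, and Rpl24 (1.11) rose, beside Plac8 of the selection. D2-3 did not side with 1 group: it had 727.5 CPM of Cd9, 335.4 of Pilra and 261.4 of Dusp5, nearer to Ctrl-2 and Ctrl-3 than to the other D2 libraries, but 196.4 CPM of Wfdc17, like D2-1. D2-3 shares its Cell Ranger version with Ctrl-2 and Ctrl-3.

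Levels of several genes differed with the UMIs of Ly6c2. The selection used this gene, so the values describe the cells and do not test an order among members. In D2-3, the library with enough cells, cells with at least 2 markers were split by Ly6c2 into 314 at 0 UMIs, 36 at 1 UMI and 30, outside the selection, at 2 or more. Cd300e had 455.2, 223.4 and 62.0 CPM in these steps, Pglyrp1 990.5, 835.1 and 197.6 CPM, and Eno3 718.9, 467.0 and 213.7 CPM. Fn1 had 15.5, 126.9 and 415.8 CPM, S100a10 135.9, 411.2 and 771.9 CPM, and Vim, vimentin, 971.8, 1482 and 3462 CPM. So Cd300e, Pglyrp1 and Eno3 were lower, and Fn1, S100a10 and Vim higher, at each step of Ly6c2 within D2-3. The members span only the steps at 0 and 1 UMI. Chil3 (374.3, 1221 and 974.1 CPM) and Hp (350.6, 335.0 and 624.9 CPM) did not keep this order. Nr4a1 and Cebpb were nearly level, at 1389, 1317 and 1215 CPM and at 4512, 4475 and 4397 CPM. Median depth was also higher at each step, at 8748, 11590 and 14620 UMIs, so a deeper cell had more chance to show a Ly6c2 UMI. These are sums over cells of 1 library and carry no test.

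**Figure D4:**
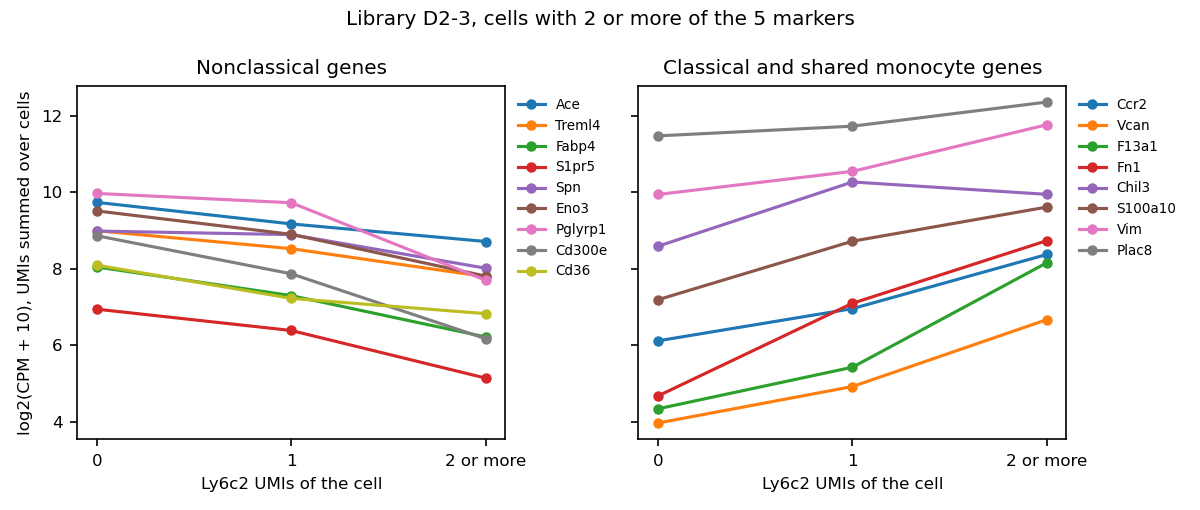
log2(CPM + 10) of nonclassical genes (left) and of classical and shared monocyte genes (right) in library D2-3, with UMIs summed over the 314, 36 and 30 cells that had 2 or more markers and 0, 1 or at least 2 UMIs of Ly6c2. Cd300e goes from 455.2 to 62.0 CPM and Fn1 from 15.5 to 415.8 CPM between the first and the last step.

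MHC class II was concentrated in few members. In 40 of 517 members the 7 MHC class II genes took over 1% of UMIs, a limit set after the values were seen. They numbered 0, 4 and 0 in the Ctrl libraries and 2, 1 and 5 in D0. D2-1 and D2-2 had 3 and 1, and D2-3 had 24. As shares of the members of a library this was 0, 5.56 and 0% in Ctrl and 18.2, 5.88 and 21.7% in D0. It was 33.3% in D2-1, where the members numbered 9, 6.67% in D2-2 and 6.86% in D2-3. D0-2 and D2-2 were thus close to Ctrl-2. The median member had 0.0118 to 0.0950% in every library. A single cell gave between 31.5% (D0-3) and 73.9% (D2-2) of the MHC class II UMIs in every library but Ctrl-1, with 93.3% of 15 UMIs, and D2-3, with 7.49%. The sums per library given for Cd74 and H2-Aa therefore rest on few cells.

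In the 40 cells Cd74 had 16720 CPM and H2-Aa 4519 CPM, against 1084 and 97.9 CPM in the other 477. The 40 had less Ear2 (396.5 against 913.9 CPM) and Cd36 (64.2 against 280.4 CPM) and more Ccr2 (250.3 against 57.0 CPM), while Ace was near level (633.5 against 756.9 CPM). Of the genes of dendritic cells, which also carry MHC class II, Cd209a had a UMI in 3 of the 40 and in 3 of the 477 (75.3 against 2.63 CPM). Flt3 had a UMI in 3 of the 40 and in 1 of the 477 (11.1 against 0.263 CPM). Zbtb46 was found in 1 of the 40 and in 5 of the 477 (2.22 against 1.31 CPM), Ccr7 in 0 and 1, and Xcr1 in none. Their median depth was 10860 UMIs against 7408. Whether they are 1 kind of cell was not tested.

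**Figure D5:**
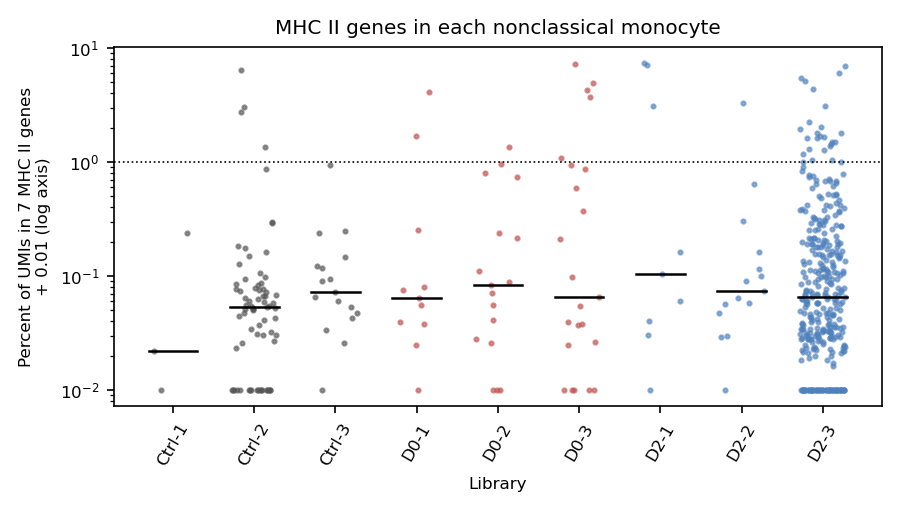
Percentage of UMIs in 7 MHC class II genes, plus 0.01, in each nonclassical monocyte (log axis); each point is a cell, black bars are library medians, colours give the condition and the dotted line is at 1%. Medians lie near the bottom in every library, and 40 of 517 cells are above the line, 24 of them in D2-3.

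Other genes varied between single members as well. Among 2622 genes ranked in 345 members of D2-3 with few microglia UMIs, the variation beyond counting noise was largest for Cxcl10, an interferon-induced chemokine found in 25.5% of these cells, H2-Eb1 (18.0%), Cxcl2 (14.8%), Ccl4 (52.8%) and Thbs1 (11.3%). In Ctrl-2, with 58 such cells, Cxcl2, H2-Eb1, H2-Ab1 and H2-Aa held the first 4 ranks among the same genes that could be ranked there, and Ccl4 was at rank 8. Cxcl10 and Thbs1 were too low in Ctrl-2 to be ranked.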

How the data were processed

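The authors deposited raw UMI counts per gene and barcode for 9 libraries, limited to barcodes accepted as cells by Cell Ranger (version 3.1.0 in the submitters' processing notes, 3.0.2 or 3.1.0 in the file headers), aligned to mm10, without normalization. Ctrl, D0 and D2 were taken from the library titles. The members, the marker and gene lists and the limits on cells were chosen with earlier results of these data known. The limits on cells are those of the study; doublets were not removed. Gene positions came from the GENCODE annotation of GRCm38.

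Since the library is the replicate, UMIs were summed over its members and fitted by the quasi-likelihood method of edgeR 4.0.16 under R 4.3.3 after filterByExpr and TMM scaling. Benjamini-Hochberg adjustment covered all genes tested, and a gene was called at an adjusted p under 0.05. A library entered with at least 10 members, and a group was tested with 2 or more such libraries; D2-3 was left out. The genes the selection used were left in the fit but out of the counts of lists. Cells per class were tested with edgeR, and shares with two-sided exact permutation tests. The steps were tested on simulated counts. Named between conditions were per comparison and selection the called genes that moved most, 5 each way, if their libraries did not overlap and the higher group reached 20 CPM, and of each list the most abundant or, where said, other genes; against other cells, the 10 largest differences each way with at least 100 CPM and 1 direction in every library (pseudocount 10 CPM). Other genes were chosen after their values were seen. Some genes that these rules would name are not reported here. Python 3.11.15 and DESeq2 1.42.0 were also used.

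Alternatives were DESeq2, upper-quartile scaling, no filter, only the groups compared, the replicate number as a block, the Cell Ranger version as a term, each library left out, D2-3 included, no upper UMI limit, cells thinned to 2000 UMIs, at least 3 markers, few microglia UMIs and other limits on members. Chosen after seeing the data were all 8 or 9 libraries without a limit on members, few microglia UMIs with at least 5 members, at least 5 members with D2-3 or without each library, only Cell Ranger 3.0.2, and Ly6c2 at 0 UMIs.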

Additional observations from a re-analysis of the deposited data

Results flagged for a closer look

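Library D2-3, which was left out of the tests except where it is said to be included, held 19.4% nonclassical monocytes among its kept barcodes, above the 2.79% of the highest control library. Of its monocytes 81.6% were nonclassical, against 75.8% in that control library, whose Wilson interval of 66.3 to 83.3% includes the value. A further 43 of its barcodes exceeded 20000 UMIs and met the rest of the selection, against 1, 7 and 5 in the Ctrl libraries. Of barcodes within the other limits, 1174 exceeded 20000 UMIs in D2-3 and 174, 439 and 480 in the Ctrl libraries. With few microglia UMIs, lifting the limit took the members from 345 to 367 in D2-3. It left them at 3, 58 and 16 in the Ctrl libraries. The labels give D2-3 the same treatment as D2-1 and D2-2, which had 0.229% and 0.620%. It also had the largest share of barcodes over the UMI limit, 37.4%. The cause was not tested.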

How the results depend on the processing

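The share among kept barcodes kept its sign under most alternatives for D0 and D2 against Ctrl and passed no test, with these exceptions. The log2 fold change of D0 against Ctrl became 2.72 when the version of Cell Ranger was added as a term and 2.72 in libraries of version 3.0.2 alone, and that of D2 against Ctrl 2.50 and 2.50. With D2-3 included, D2 stood at 2.61 against Ctrl and 3.77 against D0, and the nonclassical share of monocytes in D2 at 14.97 points above D0. Without microglia and other unnamed barcodes in the denominator the fall was -2.06 in D0 and -2.11 in D2 and passed. With each library left out in turn, which was added after seeing the data, it lay between -2.53 and -1.20 in D0 (2 of 8 values past the threshold), between -2.52 and -1.24 in D2 (1 of 8), and between -0.32 and 0.43 for D2 against D0, above 0 without D0-3 and without D2-1. With each library left out, the share among kept barcodes had log2 fold changes from -1.84 to 0.87 for D0 against Ctrl, from -2.24 to 0.66 for D2 against Ctrl and from -1.08 to 0.46 for D2 against D0, and the difference in the share of monocytes between D2 and D0 ran from -9.67 to 0.62 points. Against Ctrl, that difference stayed below 0 throughout.

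The count of genes called between D0 and Ctrl was 0, and 41 with few microglia UMIs (5 with at least 5 members), 359 without the upper UMI limit, 6 after thinning, 50 without a filter on low counts and 0 with any library left out. With the replicate number as a block it was 96. The labels give libraries the same numbers, and the deviations of same-numbered libraries correlated at 0.103 and 0.127 in only 2 pairs. With 2 Ctrl libraries the deviations in Ctrl mirror each other, so these 2 values are not independent and cannot decide on pairing. The main fit did not take the numbers as pairs. The block moved the share of kept barcodes to -0.40 in D0 and -0.65 in D2. For D2 against Ctrl, over libraries of at least 5 members, the count was 1, from 0 to 3 with each library left out, and 0 with D2-3 added, with D2-3 at the limit of 10 members, where D2-1 is left out, or with the version as a term over 8 or 9 libraries, and 12 with few microglia UMIs. With few microglia UMIs, at least 5 members and each library left out, it ran from 0 to 23 for D0 and from 3 to 40 for D2, and with D2-3 and the version as a term it was 0 for both.

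Of 773 alternative values for 36 genes described or called between D0 and Ctrl, 640 kept direction and side of the threshold, 84 also passed it and 49, in 14 genes, changed sign. With the version as a term over 8 libraries the log2 fold change became 0.42 for Csf1r, 0.0622 for Cd9, 0.37 for Nr4a1, 0.26 for Treml4, 0.68 for mt-Nd3, 0.69 for mt-Nd2, 1.12 for mt-Cytb, 0.51 for mt-Atp6 and 0.40 for mt-Co3, and over 9 libraries 0.28 for Pilra, 0.25 for Cd9, 0.52 for Nr4a1, 0.54 for mt-Cytb, 0.18 for mt-Atp6 and 0.14 for mt-Co3. Cd81, at 0.09 with all members, became -0.86 with 3 markers, -3.36 with few microglia UMIs (-1.76 with at least 5 members), -0.91 without the UMI limit, -0.91 with the block and -0.00788 without a filter, and ran from -0.79 to 0.68 with each library left out. C1qb, at 0.30, became -0.67, -3.02 (-2.16), -0.93 and -1.50 under the first 4 of these and -4.39 after thinning, and ran from -0.14 to 0.97. Nr4a1 became 0.12 with 3 markers, 0.15 with few microglia UMIs, 0.51 without the UMI limit, 0.27 after thinning and 0.16 with the block, and ran from -0.50 to 0.22, above 0 without Ctrl-3 and without D0-1. Gngt2 became -0.0385 with upper-quartile scaling and -0.0112 without a filter, and ran from -0.14 to 0.17. Itgal became 0.0665 without the UMI limit. The mitochondrial mt-Cytb became 0.13 over 8 libraries without a limit on members and ran from -0.57 to 0.20, and mt-Co3 from -0.67 to 0.17, both above 0 without Ctrl-2. The causes were not tested.

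A limit of 20 members left too few libraries to fit, the version term could not be estimated with at least 10 members, and cells per library limit every value: 3 members in Ctrl-1 and 9 in D2-1.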
